A study of Rattus norvegicus with 8 samples.

Results

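The 5 dopamine receptor genes of the rat, *Drd1* to *Drd5*, were followed in the *substantia nigra* (SN) of rats that received AAV-αSyn or AAV-Null. Every non-control probe whose RefSeq accession belongs to 1 of these genes was taken, which gave 5 of the 16678 genes named on the array and 7 of its 45598 probes. *Drd1* and *Drd4* had 2 probes each and *Drd2*, *Drd3* and *Drd5* had 1 each. All animals were adult female Sprague-Dawley rats, aged 3 months at surgery, and both groups received an adeno-associated virus of serotype 6 into the SN of 1 side. AAV-αSyn (5.2e10 vg/µL) expressed the wild-type human form of α-synuclein, and AAV-Null (5.3e9 vg/µL) served as control vector. The titre differed with the vector, so that the effect of the transgene and that of the dose of virus cannot be told apart. The promoter of the vectors is not given in the sources used here. RNA of the injected SN was taken after 20 weeks, and 4 rats per group were measured, each on its own array.

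Dopamine receptors are receptors with 7 membrane spans that signal through heterotrimeric G proteins. The D1-like receptors (*Drd1*, *Drd5*) couple to the stimulatory proteins Gs and Golf and raise cyclic AMP through adenylyl cyclase, whereas the D2-like receptors (*Drd2*, *Drd3*, *Drd4*) couple to Gi and Go, lower cyclic AMP and open GIRK potassium channels. Dopaminergic (DA) neurons of the SN carry the D2 receptor as an autoreceptor on their soma, dendrites and terminals, where it slows firing and dopamine release. Much D1 receptor protein of the SN lies on axon terminals of striatal neurons, whose mRNA is made in the striatum and not in the nigra.

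On each array 74.8% to 77.5% of the spots were well above background by the call of the scanner software, and the lowest intensity that received this call was 9.35 to 12.3 arbitrary units. Values below are log2 intensities after quantile normalization unless intensities are named. A probe was tested when it was above background on at least 1 array, and p-values were adjusted over all 33853 probes tested. No receptor spot was marked as an outlier or saturated. With 4 arrays a group, the precision is limited by their number.

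Of the 5 receptors, 4 had a probe well above background on all 8 arrays and *Drd3* had none on any array. The probes above background throughout were those of *Drd2* and *Drd5*, 1 of the 2 of *Drd1* (A_44_P1114108) and 1 of the 2 of *Drd4* (A_64_P150519). The remaining *Drd1* probe (A_44_P557376) received this call on 1 array, of the AAV-αSyn group, and the remaining *Drd4* probe (A_44_P1101585) passed on 1 array of the AAV-Null group and on all 4 of the AAV-αSyn group. Hence 6 of the 7 receptor probes were tested, where 74.2% of all probes were, and 4 were above background on every array, where 65% of all probes were. Levels of different probes are not set against each other, since brightness also depends on the probe.

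**Figure D1:**
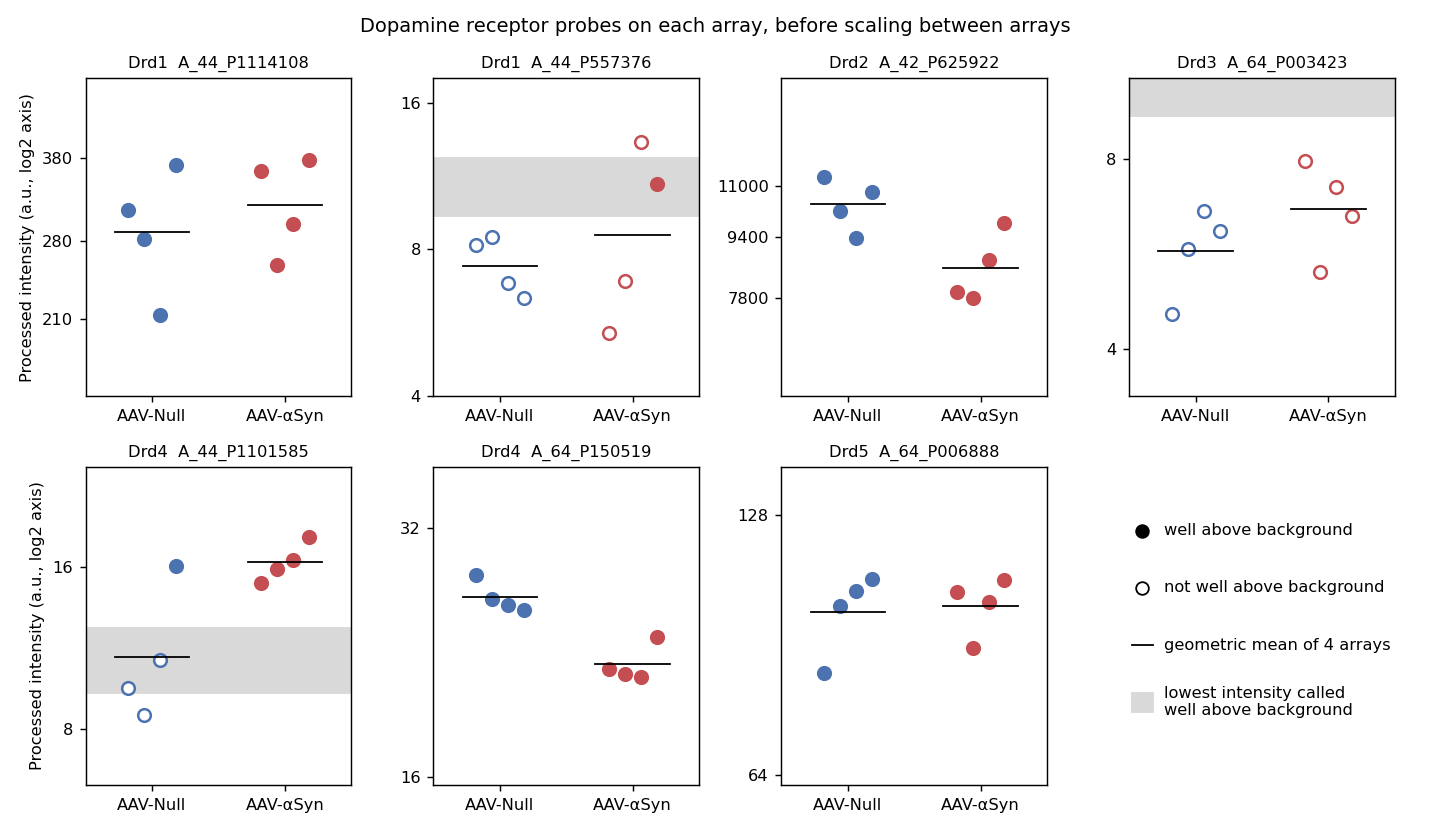
Processed intensity of the 7 dopamine receptor probes (log2 axis, arbitrary units, before scaling between arrays) on the 4 AAV-Null and 4 AAV-αSyn arrays. Filled points are well above background, open points are not, bars are geometric means, and the grey band is the range over the 8 arrays of the lowest intensity called well above background. *Drd3* lies under the band on every array, and *Drd4* is the gene with a probe that is mostly open in the AAV-Null group and filled in the AAV-αSyn group.

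None of the 6 receptor probes passed the adjusted threshold of 0.05, which 0.0148% of all probes tested passed (5 probes, all higher in the AAV-αSyn group and 0 lower). An unadjusted p under 0.05 was found for 3 receptor probes, against 5.64% of all probes tested. *Drd2* and 1 *Drd4* probe were lower in the AAV-αSyn group, as were 2.32% of all probes at that threshold, and the other *Drd4* probe, which was at background on 3 of the 4 AAV-Null arrays, was higher, as were 3.31%. The arrays of the groups did not overlap at 1 receptor probe, that of *Drd2*, against 3.83% of all probes tested (1.26% in the lower and 2.57% in the higher direction). The median difference over all probes tested was 0.01.

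*Drd2*, the autoreceptor gene of DA neurons, was lower in the AAV-αSyn group by limma's estimate, but not past the adjustment. Its log2 intensity was 13.49, 13.37, 13.35 and 13.28 on the AAV-Null arrays. On the AAV-αSyn arrays it was 12.85, 13.07, 13.14 and 13.12. Every AAV-αSyn array lay under every AAV-Null array, and AAV-αSyn replicate 1 was the lowest. The means were 13.37 ± 0.087 (SD, n = 4) and 13.05 ± 0.13 (SD, n = 4), a difference of −0.33 ± 0.09 (SE) with a 95% interval of −0.53 to −0.12, or −20.2% (−30.9% to −7.95%). In limma's test the unadjusted p was 0.00654, the rank 335 of 33853 probes, and the adjusted p 0.661. The exact two-sided permutation test gave p = 0.0286, which is the smallest that 8 arrays in 2 equal groups can give. Before scaling, the intensities overlapped by 1 array of each group: AAV-Null replicate 3 was at 9363, the lowest of its group (highest 11312), and AAV-αSyn replicate 4 at 9830, the highest of its group (lowest 7803). The difference was −0.33 on either side of the slide, with 2 arrays of each group per side.

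Among the DA neuron markers, 11 of the 12 genes listed had a named probe (*En1* had none), all 11 were above background on all arrays, and all 11 had a lower mean in the AAV-αSyn group, as did 47.6% of all probes tested. Unadjusted p-values under 0.05 were found for 5 of the 11, where 2.32% of all probes were lower at that threshold, and adjusted ones for 0 (limma), and the median difference was −0.34, against 0.01 over all probes tested. The labelled tissue thus held its defining markers, and their summed normalized intensity was 156263 to 199513 on the AAV-Null arrays and 122480 to 132862 on the AAV-αSyn arrays. In whole tissue, fewer cells of a type and less RNA per cell cannot be told apart.

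*Th*, which encodes tyrosine hydroxylase, the rate-limiting enzyme of dopamine synthesis, was 16.70, 16.51, 16.30 and 16.43 on the AAV-Null arrays and 15.98 to 16.01 on 3 AAV-αSyn arrays, with 15.88 on the fourth. The groups did not overlap, and the difference was −0.52 ± 0.096 (SE; adjusted p = 0.484, limma). *Slc6a3*, the dopamine transporter, was 11.25, 10.80, 11.39 and 10.32 against 9.96, 10.09, 10.60 and 9.94, so that AAV-Null replicate 4 lay within the range of the AAV-αSyn arrays. Its difference was −0.79 ± 0.26 (SE; adjusted p = 0.747). *Ddc*, the decarboxylase that forms dopamine, differed by −0.25 (adjusted p = 0.835) with no overlap, and *Slc18a2*, the vesicular monoamine transporter, by −0.29 (adjusted p = 0.91) with overlap. Groups lay apart for 2 of the 11 DA neuron markers tested, both lower, where 1.26% of all probes tested did so in that direction.

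Whether *Drd2* differed by an amount unlike that of other genes was tested with the difference between 2 probes on the same array, over 3 such differences. *Drd2* minus *Th* was −3.11 ± 0.11 for AAV-Null and −2.92 ± 0.16 for AAV-αSyn (SD, n = 4 each; exact permutation p = 0.0571, 0.129 after adjustment over the 3). For *Drd2* minus *Slc6a3* the values were 2.43 ± 0.43 and 2.90 ± 0.27 (SD, n = 4 each; exact permutation p = 0.171, adjusted 0.171). *Drd2* minus *Drd1* was 5.18 ± 0.34 and 4.75 ± 0.23 (SD, n = 4 each; exact permutation p = 0.0857, adjusted 0.129). A single one of the 3 cannot go below 0.0857 after this adjustment unless others are low too. No unequal change was detectable at this number of arrays, which does not show that the genes changed alike. With 1 array left out, *Drd2* minus *Drd1* ranged from −0.57 (without AAV-Null replicate 4; exact permutation p = 0.0286, adjusted 0.0857) to −0.29 (without AAV-Null replicate 3), and *Drd2* minus *Slc6a3* from 0.31 (without AAV-Null replicate 3) to 0.64 (without AAV-Null replicate 4).

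**Figure D2:**
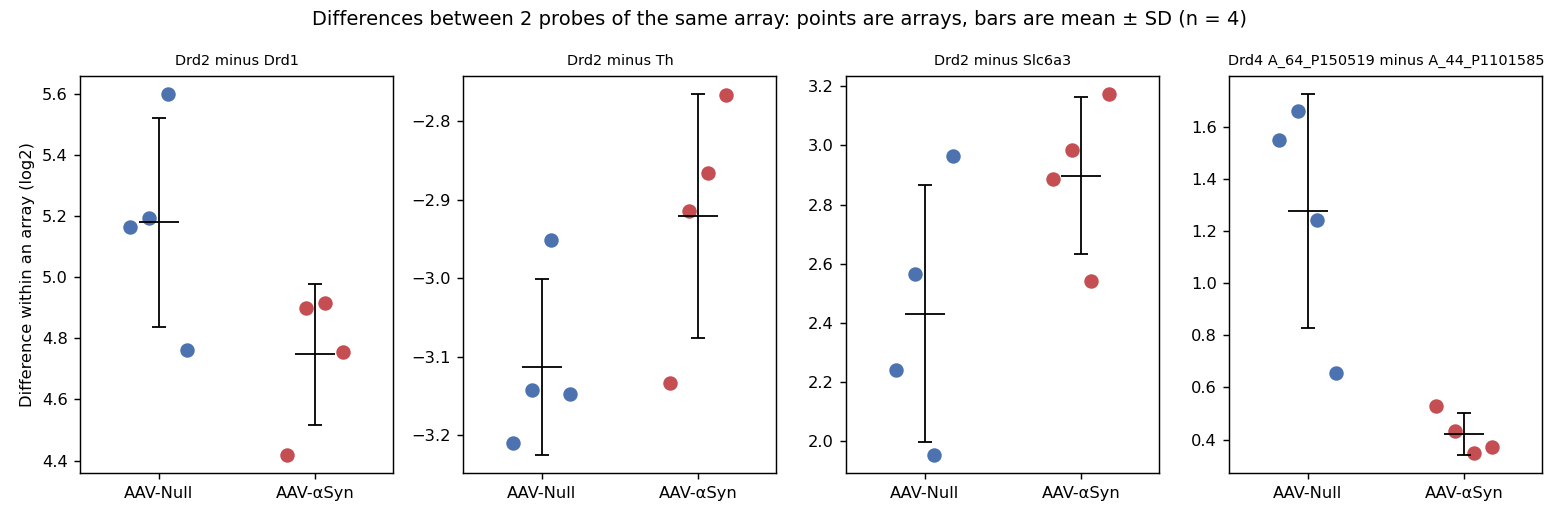
Differences between 2 probes on the same array (log2, y axis) for each AAV-Null and AAV-αSyn array (points), with the mean ± SD of each group (n = 4) as bars. The groups overlap for *Drd2* minus *Drd1*, *Drd2* minus *Th* and *Drd2* minus *Slc6a3*, and do not overlap for the pair of *Drd4* probes.

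Markers of other regions and cell types were set beside these values, and none of them passed the adjusted threshold in limma's test. All 6 serotonergic markers had a higher mean in the AAV-αSyn group (2 with an unadjusted p under 0.05, where 3.31% of all probes were higher at that threshold; median difference 0.95). Their summed intensity was 722, 786, 2705 and 969 on the AAV-Null arrays and 3110, 4181, 2292 and 6050 on the AAV-αSyn arrays. Replicate 3 of AAV-Null alone overlapped with the AAV-αSyn group, and the other 3 reached 969 at most. *Fev* was above background on 1 and 3 arrays. All 5 thalamic markers with a named probe (*Tcf7l2* had none) had a lower mean (4 with an unadjusted p under 0.05, where 2.32% of all probes were lower at that threshold; median difference −0.79). They summed to 3324, 10174, 15883 and 7944 on the AAV-Null arrays and to 2477, 4674, 3646 and 1698 on the AAV-αSyn arrays, with AAV-Null replicate 1 the array within the other group's range. Markers of striatal projection neurons, cells that express *Drd1* or *Drd2*, were split, with 5 of 11 higher and 6 lower and summed intensities of 28517 to 31853 and 24808 to 33596, and *Gpr6* was not well above background on any array. The GABAergic list summed to 66598 to 82875 and 77915 to 90770. Of the 6 cortical and hippocampal markers, 3 were above background on all arrays and all 5 tested had a higher mean in the AAV-αSyn group (0 with an unadjusted p under 0.05, median difference 0.24), with summed intensities of 13366 to 15064 and 13993 to 15435. In this list *Tbr1* was not well above background on any array, and *Slc17a7* was so on 1 AAV-Null and 2 AAV-αSyn arrays. The hypothalamic list summed to 2263 to 2711 on 3 AAV-Null arrays and 2232 to 2694 on the AAV-αSyn arrays. AAV-Null replicate 4 stood apart at 22075, through *Pmch*, which was 14.32 there and 8.66 to 9.81 on the other 3. The part of tissue composition in the differences of the receptors was not tested.

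*Drd4*, a D2-like receptor of low abundance in most of the brain, had estimates of opposite sign at its 2 probes, of which 1 measured the gene in both groups. The probe above background throughout (A_64_P150519, accession NM_012944) was 4.86, 4.74, 4.64 and 4.71 on the AAV-Null arrays and 4.37, 4.66, 4.38 and 4.35 on the AAV-αSyn arrays. Only AAV-αSyn replicate 2 reached into the AAV-Null range. Its means were 4.74 ± 0.09 and 4.44 ± 0.15 (SD, n = 4 each), a difference of −0.30 ± 0.094 (SE; 95% interval −0.51 to −0.08), or −18.6%. In limma's test the unadjusted p was 0.0133 and the adjusted p 0.747, and the exact permutation test gave 0.0571. Before scaling, intensities were 25.5 to 28.1 on the AAV-Null arrays and 21.1 to 23.6 on the AAV-αSyn arrays, without overlap and near the lower end of the measured range. With normexp background correction and an offset of 50 the difference was −0.07 (unadjusted p = 0.198, limma).

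The other *Drd4* probe (A_44_P1101585, accession XM_006230521, a predicted transcript) was 3.31, 3.08, 3.40 and 4.05 on the AAV-Null arrays and 3.84, 4.22, 4.03 and 3.98 on the AAV-αSyn arrays. AAV-Null replicate 4 lay among the AAV-αSyn arrays, and it was also the AAV-Null array on which the probe was well above background, at an intensity of 16.1, where the other 3 AAV-Null arrays were at 8.50 to 10.8. The 4 AAV-αSyn arrays were at intensities of 14.96 to 18.21. The means were 3.46 ± 0.42 and 4.02 ± 0.16 (SD, n = 4 each), and limma's fit gave a difference of 0.56 (unadjusted p = 0.0236, adjusted p = 0.821). Since 3 of the 4 AAV-Null arrays were not well above background, this estimate compares a measured group with values at or near background and is no fold change of the gene. The exact permutation p was 0.114. Leaving out AAV-Null replicate 1, 2 or 3 or AAV-αSyn replicate 2 took the unadjusted p to 0.0541 to 0.0623. Without AAV-Null replicate 4 the groups did not overlap and the estimate was 0.76. The AAV-Null arrays that remained were all at background, so that this fit cannot test the gene and its p-value is not given. With the normexp correction the estimate was 0.11.

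The estimates of the 2 *Drd4* probes differed in sign, and A_64_P150519 alone measured the gene in both groups. The difference between them within an array, computed after their opposite signs were seen, was 1.55, 1.66, 1.24 and 0.66 on the AAV-Null arrays and 0.53, 0.43, 0.35 and 0.37 on the AAV-αSyn arrays. The means differed by −0.85, or by −0.19 with the normexp correction. This is a description with no test, since the opposite signs prompted it and 1 of the probes was at background on 3 AAV-Null arrays. Which part of the *Drd4* transcript either probe covers was not analysed here.

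**Figure D3:**
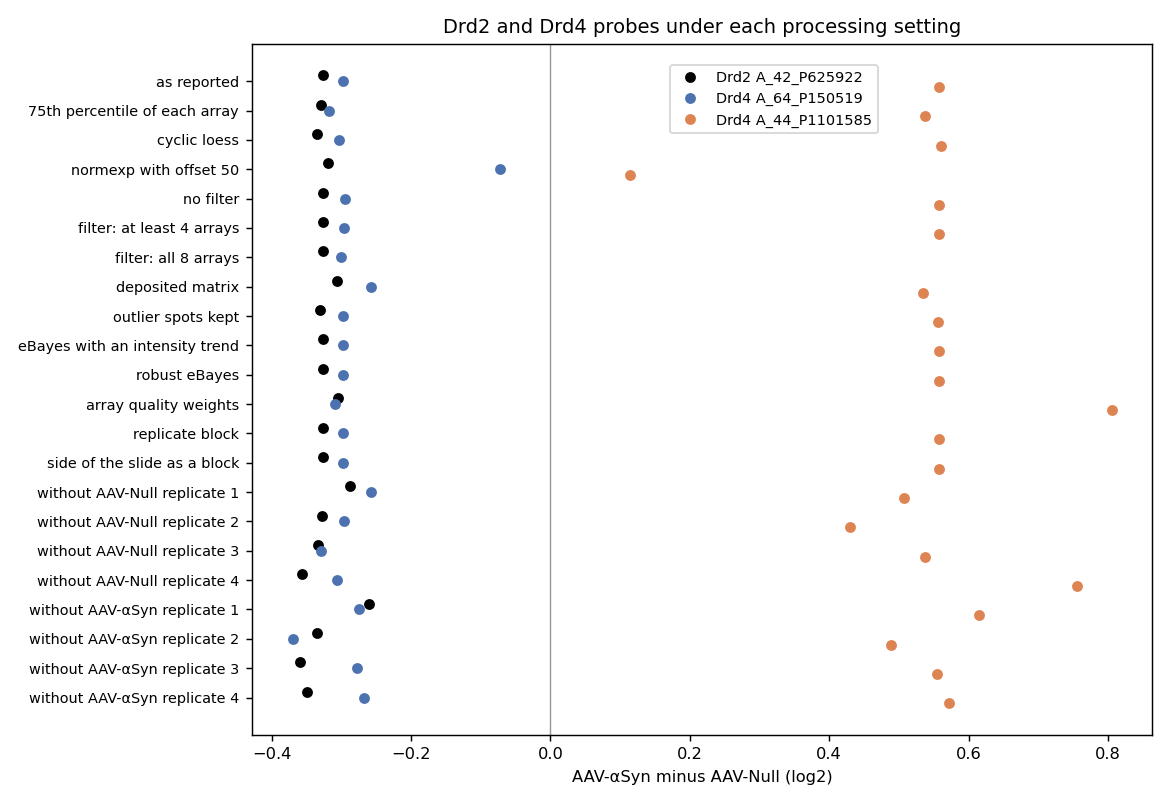
Difference AAV-αSyn minus AAV-Null (log2, x axis) for the *Drd2* probe and the 2 *Drd4* probes under each processing setting and with each array left out (y axis). *Drd2* stays between −0.36 and −0.26 throughout, and the *Drd4* probes lie on opposite sides of 0 and come closest to it with the normexp correction.

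*Drd3*, a D2-like receptor known mainly from limbic regions, was not well above background on any array. Its processed intensities were 4.55, 5.76, 6.62 and 6.16 on the AAV-Null arrays and 7.95, 5.31, 7.23 and 6.50 on the AAV-αSyn arrays. All 8 were under the lowest intensity that any array called well above background. No fold change is given, since neither group had a measured level, and these values do not show that the transcript was absent.

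*Drd1*, the most abundant dopamine receptor of the striatum, showed no detectable difference at the probe that measured it on every array (A_44_P1114108, accession NM_012546). The values were 8.33, 8.17, 7.75 and 8.52 on the AAV-Null arrays and 8.43, 8.17, 8.23 and 8.36 on the AAV-αSyn arrays. The AAV-αSyn arrays lay inside the range of the AAV-Null arrays, in which replicate 3 was the lowest. The means were 8.19 ± 0.33 and 8.30 ± 0.12 (SD, n = 4 each), and the difference was 0.11 ± 0.16 (SE; adjusted p = 0.975, limma). Its 95% interval ran from −0.26 to 0.48, or −16.8% to 39.1%, so that changes of such sizes remain possible. Without AAV-Null replicate 3 the difference was −0.04.

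The other *Drd1* probe (A_44_P557376, same accession) was at background on all AAV-Null arrays, with intensities of 6.37 to 8.49. On the AAV-αSyn arrays it was 5.39, 6.88, 13.3 and 10.9. AAV-αSyn replicate 4 alone received the call of well above background, although replicate 3 was brighter. The groups overlapped, and the fit gave a difference of 0.13 (adjusted p = 0.986, limma), which compares values at or near background and is no fold change of the gene.

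*Drd5*, the D1-like receptor with the higher affinity for dopamine, was 6.44, 6.68, 6.70 and 6.78 on the AAV-Null arrays and 6.67, 6.67, 6.65 and 6.54 on the AAV-αSyn arrays. AAV-Null replicate 1 was the lowest array, and the AAV-αSyn arrays lay inside the range of the AAV-Null arrays. Its means were 6.65 ± 0.14 and 6.63 ± 0.065 (SD, n = 4 each). The difference of −0.02 ± 0.09 (SE; adjusted p = 0.993, limma) had a 95% interval of −0.22 to 0.19, or −14.4% to 14.0%, and its sign turned when AAV-Null replicate 4 or AAV-αSyn replicate 4 was left out.

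**Figure D4:**
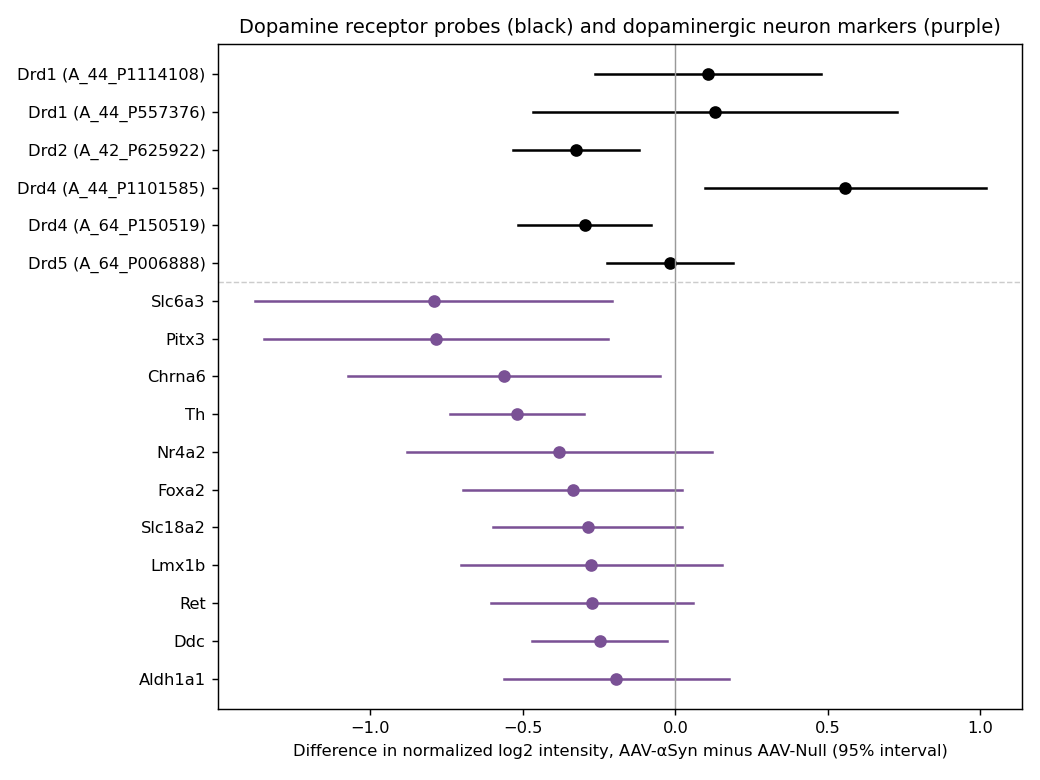
Difference AAV-αSyn minus AAV-Null (log2, x axis) with its 95% interval from limma for the 6 dopamine receptor probes tested (black) and, in purple, the 11 DA neuron markers (y axis). The intervals of *Drd2* and both *Drd4* probes exclude 0 before adjustment, *Drd2* and A_64_P150519 on the lower side and A_44_P1101585 on the higher side, where 3 of the 4 AAV-Null arrays were not well above background, all 11 markers lie under 0, and nothing shown passed the adjusted threshold.

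The genes through which these receptors signal were described from 5 lists with 76 genes, of which 75 had a named probe and were tested (*Epb41l2* had none), 73 of them above background on all arrays. None passed the adjusted threshold in limma's test. An unadjusted p under 0.05 was found for 4 genes, or 5.33%, against 5.64% of all probes tested. Of the 75 genes, 36 had a higher and 39 a lower mean in the AAV-αSyn group, with a median difference of −0.03.

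In the stimulatory arm, from the G protein subunits to adenylyl cyclase, 5 of 13 genes had a higher and 8 a lower mean, the median difference was −0.03, and 0 had an unadjusted p under 0.05 at the brightest probe. *Gnas*, the α subunit of Gs, differed by 0.07 at that probe and by 0.27 (unadjusted p = 0.0222, adjusted p = 0.807, limma), 0.43 and 0.44 at its other 3 probes. Over all 22 tested probes of this list, that 1 was under 0.05, where 5.64% of all probes tested on the array were. *Gnal*, the α subunit of Golf, differed by −0.03 (adjusted p = 0.993, limma). *Gng7*, a γ subunit that pairs with Golf, was at 8.92 ± 0.21 and 8.58 ± 0.23 (SD, n = 4 each), a difference of −0.34 (adjusted p = 0.884, limma), and its second probe gave −0.33. *Adcy5*, the main adenylyl cyclase of the striatum, ranged from 10.91 to 11.06 without the transgene (AAV-Null) and from 10.86 to 10.87 with it (AAV-αSyn). The groups of *Adcy5* did not overlap, but the difference was small, at −0.12 ± 0.064 (SE; adjusted p = 0.926, limma). Of all probes tested, 1.26% had groups apart in the lower direction. *Adcy2* differed by −0.16 and *Adcy3* by −0.03.

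In the inhibitory arm, with the Gi and Go subunits and the GIRK channels, 7 of 13 genes had a higher and 6 a lower mean, the median difference was 0.00, and 0 had an unadjusted p under 0.05 at the brightest probe. *Kcnj6*, the GIRK2 channel that the D2 autoreceptor opens in DA neurons, differed by −0.23 (adjusted p = 0.96, limma) at its brighter probe and by −0.38 (unadjusted p = 0.0348, adjusted p = 0.844) at the other, the 1 probe under 0.05 of the 17 tested in this list. Of all probes tested on the array, 5.64% were under 0.05. *Kcnj9*, the GIRK3 subunit, was at 8.58 ± 0.35 and 8.16 ± 0.27 (SD, n = 4 each), and *Kcnj3*, the GIRK1 subunit, at 12.07 ± 0.17 and 12.07 ± 0.089. *Gnao1*, the α subunit of Go, differed by −0.24, *Gnb4* by 0.23 and *Gnaz* by 0.03.

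Downstream of cyclic AMP, in the list of protein kinase A subunits, phosphatases and phosphodiesterases, 6 of 17 genes had a higher and 11 a lower mean, the median difference was −0.04, and 0 had an unadjusted p under 0.05. *Ppp1r1b*, which encodes DARPP-32, the integrator of D1 and D2 signals in striatal neurons, was at 12.09 ± 0.56 and 11.79 ± 0.18 (SD, n = 4 each; adjusted p = 0.972, limma). *Arpp21*, another phosphoprotein regulated by cyclic AMP, differed by −0.76 ± 0.44 (SE; adjusted p = 0.95) at its brightest probe, and by −0.39 to −0.16 at its other 4 probes. *Prkar2a* differed by −0.15, *Prkacb* by 0.03 and *Cdk5* by −0.01.

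Among the receptor kinases, arrestins and RGS proteins, which end receptor signalling, 10 of 17 genes had a higher and 7 a lower mean, with a median of 0.02. At the brightest probe 3 of the 17 had an unadjusted p under 0.05 (1 higher, 2 lower), as did 4 of all 27 tested probes of the list (1 higher, 3 lower). Of all probes tested on the array, 5.64% were under 0.05 (3.31% higher, 2.32% lower). *Grk5*, a kinase that phosphorylates activated receptors, was 7.69, 7.53, 7.55 and 7.59 on the AAV-Null arrays and 7.92, 8.03, 7.84 and 7.84 on the AAV-αSyn arrays. All AAV-αSyn arrays were above all AAV-Null arrays, with a difference of 0.32 ± 0.076 (SE; unadjusted p = 0.00301, adjusted p = 0.6, limma). *Rgs8*, which speeds the inactivation of Gi and Go, differed by −0.49 (unadjusted p = 0.0215, adjusted p = 0.8, limma) and by −0.31 at its second probe. *Rgs7* differed by −0.34 (unadjusted p = 0.0472, adjusted p = 0.877), *Grk6* by 0.02 and *Rgs17* by 0.02. The groups also did not overlap for *Arrb1*, an arrestin (−0.17; adjusted p = 0.902, limma), and for *Rgs12* (0.16; adjusted p = 0.92). Groups thus lay apart for 2 genes of the list in the higher and 1 in the lower direction. They did so for 2.57% and 1.26% of all probes tested.

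Among the proteins that bind or stand beside the receptors, 8 of 15 genes had a higher and 7 a lower mean, with a median of 0.01. Of the 15, 1 had an unadjusted p under 0.05, as did 2 of all 25 tested probes (1 higher, 1 lower). Over the whole array, 5.64% of the probes tested were under 0.05 (3.31% higher, 2.32% lower). *Ncs1*, a calcium sensor that binds the D2 receptor and limits its desensitisation, was at 7.90 ± 0.28 and 7.51 ± 0.22 (SD, n = 4 each), a difference of −0.38 (unadjusted p = 0.0453, adjusted p = 0.871, limma). *Adora1*, an adenosine receptor, differed by −0.23, *Flna* by 0.01 and *Epb41l1* by 0.01. None of these differences passed the adjustment.

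**Figure D5:**
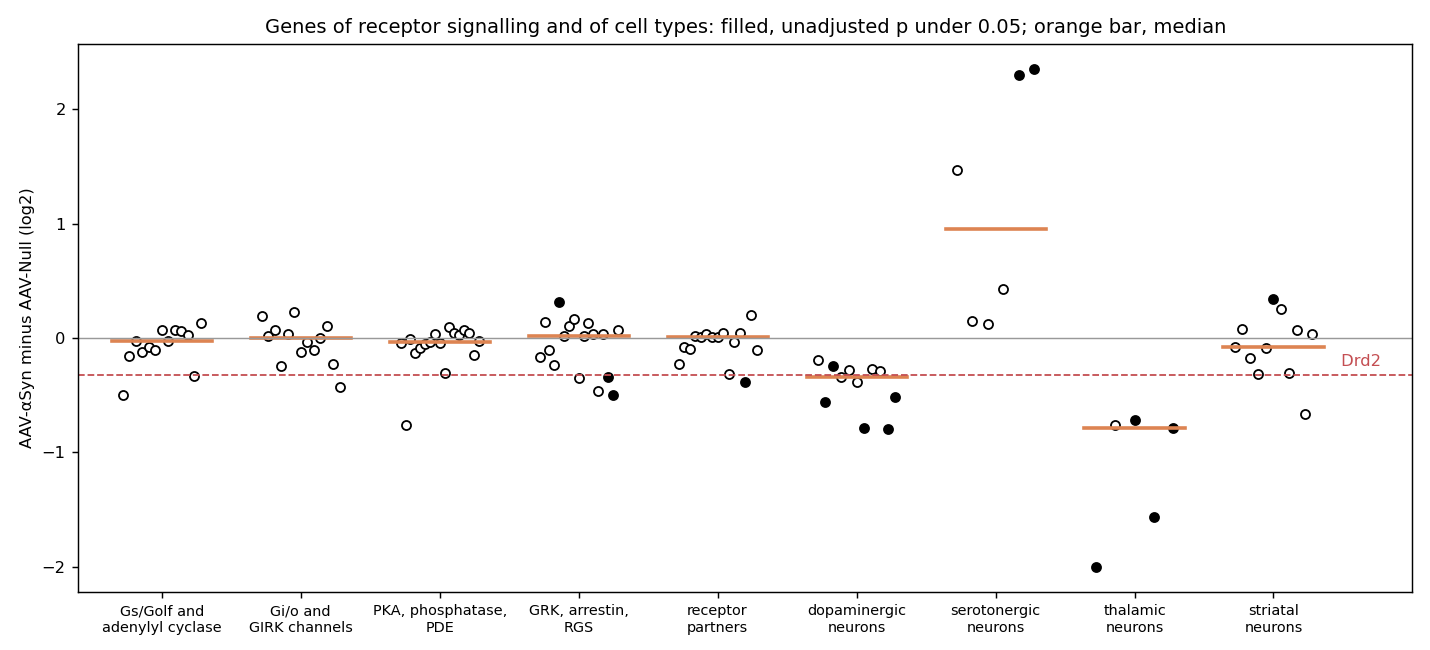
Difference AAV-αSyn minus AAV-Null (log2, y axis) of every tested gene in the 5 lists of receptor signalling and in the DA, serotonergic, thalamic and striatal marker lists (x axis). Filled points have an unadjusted p under 0.05, orange bars are list medians, and the dashed line is the difference of *Drd2* at −0.33. The signalling lists have medians between −0.04 and 0.02. Both the DA neuron list (median −0.34) and the thalamic list (−0.79) lie wholly under 0. The serotonergic list lies wholly above 0 (0.95), and the striatal list on both sides of it (−0.08).

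Finally, the genes whose log2 intensity ran most like that of each receptor over the 8 arrays were ranked among 13641 named genes, as a description. All arrays share the same scaling and 2 groups, so that a group difference alone gives likeness. *Slc39a4*, a zinc transporter (Pearson's r = 0.981, Spearman's rho = 0.976), *Zfp644* (0.947 and 0.976) and *Cep112* (0.938 and 0.905) were nearest to *Drd2*. *Slc18a2* came at rank 26 (r = 0.874), *Th* at rank 34 (r = 0.862), *Ddc* at rank 41 (r = 0.857) and *Slc6a3* at rank 67 (r = 0.824). After the group means were taken away, r with *Drd2* was 0.825 for *Slc18a2*, 0.628 for *Ddc*, 0.536 for *Slc6a3* and 0.356 for *Th*. For *Drd4* at A_64_P150519, *Th* came at rank 9 (r = 0.882), *Ddc* at rank 147, *Slc6a3* at rank 377 and *Slc18a2* at rank 809, and after the group means were taken away r was 0.582 with *Th*, 0.265 with *Ddc*, −0.003 with *Slc6a3* and −0.051 with *Slc18a2*. Nearest to *Drd1* were *Ercc3* (r = 0.987), *Hnmt* (r = 0.987) and *Pdcd10* (r = 0.985). *Drd4* at A_64_P150519 was nearest to *Vil1* (r = 0.947), *Cep112* (r = 0.917) and *Kcnd3* (r = 0.91). *Drd5* was nearest to *Mrgprg* (r = 0.94), which was above background on 4 arrays, *Bad* (r = 0.937) and *Dvl3* (r = 0.934).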

How the data were processed

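RNA of the injected SN was hybridised to 1-colour Agilent arrays, 4 per group, all on 1 slide. The authors deposited Feature Extraction files with an intensity per spot, background-corrected within the array and not scaled between arrays, and a quantile-normalized matrix of log2 values. Per the file headers the software was version 12.0.3.2, where the submitters' processing notes give 11.5.1.1. The methods count 3 rats per group for the arrays, and all 4 deposited per group were used. From 10 rats injected per group, the measured ones are named as separate samples.

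Values were computed from the intensities with limma 3.58.1 in R 4.3.3. The 4259 control features and spots marked as outliers (268 to 418 per array) were left out, log2 intensities were quantile normalized, and probes well above background on at least 1 array at 0.5 or more of their spots were tested by lmFit and eBayes with Benjamini–Hochberg adjustment over all 33853. Single values were tested by exact two-sided permutation over the 70 splits of the arrays. The procedure was tested on simulated data.

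RefSeq accessions were named through a table of the assembly GRCr8 (21229 of 45598 probes named). The files name no assembly, so no positions are given. Where a gene had several probes the brightest stands for it, except that all receptor probes are given. Named genes are the receptors, 4 DA neuron and 4 effector genes, up to 3 genes of smallest and 2 of largest p from each signalling list, listed genes at background, and the 3 genes most like each receptor. *Fev*, *Slc17a7*, *Pmch*, *Gnas*, *Arrb1*, *Rgs12* and second probes were named after their values were seen. A gene that the rule would name is not reported here. The receptors and the lists were chosen with earlier results of these data known.

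Alternatives were scaling by the 75th percentile or cyclic loess, normexp correction with an offset of 50, no filter or one of 4 or 8 arrays, the deposited matrix, outlier spots kept, eBayes with a trend or robust, array weights, the replicate number or side of the slide as a block, the mean of a gene's probes, and each array left out. The PCR array, behaviour and histology were not analysed here.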

Additional observations from a re-analysis of the deposited data

Results flagged for a closer look

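In groups of 4 arrays, a value was singled out when its gap to the nearest other value was a larger share of the range of the group than Dixon's 95% critical value allows. This was examined in 86 groups, and 3 were singled out, where chance gives about 4.3. *Drd4* at A_64_P150519 was 4.66 on AAV-αSyn replicate 2, above the other 3 arrays of the group at 4.35 to 4.38, and without this array the groups did not overlap (−0.37; unadjusted p = 0.00301, limma). *Adcy5* was 10.874 on AAV-αSyn replicate 2, with the other 3 between 10.858 and 10.859, so that the gap is a small one in a tight group. *Epb41l1* was 14.923 on AAV-Null replicate 3, with the other 3 between 13.987 and 14.139.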

How the results depend on the processing

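*Drd2* was −0.335 to −0.305 over the processing alternatives (unadjusted p 0.00197 to 0.0285, adjusted p 0.185 to 0.806, limma) and −0.36 to −0.26 with 1 array left out, and its groups stayed apart in all of these. Signs turned for *Drd1* at A_44_P1114108 without AAV-Null replicate 3 (−0.0416), at A_44_P557376 without AAV-αSyn replicate 3 (−0.0861), for *Drd5* without AAV-Null replicate 4 (0.0251) or AAV-αSyn replicate 4 (0.0146). The mean of both *Drd4* probes gave 0.13, but it takes in the probe at background on 3 AAV-Null arrays, and A_64_P150519 itself was negative under the 13 other processing alternatives and with each of the 8 arrays left out. With 1 array left out, these probes of *Drd1* ranged to 0.215 and 0.371 and *Drd5* to −0.087. A_64_P150519 ranged from −0.37 to −0.26 with 1 array left out, and its unadjusted p was 0.0878 with an intensity trend. A_44_P1101585 was 0.11 (normexp) to 0.81 (array weights), and 0.43 to 0.76 with 1 array left out, with an unadjusted p of 0.0514 with the trend. The 5 probes past the adjusted threshold became 12 with array weights, 0 with the replicate block and 3 with the side of the slide, and 3 to 5 with 1 array left out. Probes with an unadjusted p under 0.05 numbered 4607 with array weights, and 1446 to 2803 with 1 array left out. Signalling genes with an unadjusted p under 0.05 numbered 7 with normexp, with no filter and with the trend, 10 with array weights, and 1 to 10 with 1 array left out: 9 without AAV-Null replicate 1, 10 without AAV-Null replicate 3, 1 without AAV-αSyn replicate 1 and 2 without AAV-αSyn replicate 4. The causes were not tested. Replicate numbers are known to share only the row of the slide. Deviations of same-numbered arrays correlated at 0.144, 0.267, 0.041 and −0.002, and 2 of 4 numbers matched best with their own. So few correlations cannot settle whether the numbers pair the rats, and the reported fit treats the arrays as unpaired. With the replicate block *Drd2* was −0.33 (unadjusted p = 0.0285, adjusted p = 0.712, limma). The difference between the *Drd4* probes, its alternatives, the correlations without group means, the list sums per array, the counts over all probes of a list and the intensity ranges before scaling were chosen after seeing the data. That difference was −0.87 to −0.19 over the scalings, background correction and matrix, and −1.06 to −0.73 with 1 array left out. *Drd2* minus *Drd1* was −0.423 to −0.404, *Drd2* minus *Th* 0.169 to 0.232 and *Drd2* minus *Slc6a3* 0.407 to 0.469 over the scalings, background correction and matrix, and *Drd2* minus *Th* was 0.142 to 0.264 with 1 array left out, with no adjusted p under the threshold. Signal over background limits *Drd3*, the second *Drd1* probe and both *Drd4* probes.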
